A study of Mus musculus with 30 samples.

Results

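Null mouse embryonic stem (ES) cells that had been without LIF for 6 days were set against Fl/Fl ES cells at the same day. The comparison was chosen by genotype and day alone and takes in 7 of the 30 arrays of the study, 5 of null cells and 2 of Fl/Fl cells. Null cells carry the Jmj (-/-) genotype and Fl/Fl cells are Jmj (fl/fl), called wild-type in the labels; Jmj is the gene Jarid2. In the study as a whole, cells of both genotypes were moved to medium without LIF, the cytokine that keeps mouse ES cells undifferentiated, and RNA was taken at days 0, 2, 4, 6 and 8. Total RNA was turned into biotin-labelled cRNA and hybridized to Affymetrix arrays, 1 array per sample. Both groups at day 6 share the culture and the LIF withdrawal, and no further agent is named. The labels number the samples as biological replicates but do not say whether these were separate cultures or how many null clones were used. The p-values therefore rest on the spread between samples of the same genotype and day, part of which may be technical. For each gene that spread was estimated over all 30 arrays of the study and not over these 7 alone.

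JARID2 is a nuclear protein that lacks the demethylase activity of other Jumonji proteins and binds Polycomb repressive complex 2 (PRC2), the enzyme complex that methylates a lysine of histone H3 at silent developmental genes. ES cells are held in the pluripotent state by the transcription factors OCT4 (encoded by Pou5f1), SOX2 and NANOG, first in a naive form that depends on LIF and then, on leaving it, in a form like the epiblast of the implanted embryo, driven by Nodal and FGF signals. When differentiation goes on, part of the cells become mesenchymal: they lay down fibrillar collagen and other matrix proteins, and make the enzymes, receptors and contractile proteins that go with a matrix.

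The deposited values are probe set intensities on a linear scale. The mean intensity of the 7 arrays lay between 349.8 and 358.8, and the median was 10 or 11, so that most probe sets lay near the floor of the arrays. Each gene is given by 1 probe set, and levels are set side by side only between arrays, never between genes. Differences are null minus Fl/Fl on the scale log2(intensity + 4), which makes changes near the floor look smaller, with the standard error (SE) and the p-value of limma's moderated test, adjusted by Benjamini-Hochberg over 18194 genes. A gene is said to have risen or fallen where that adjusted p was under 0.05. The small number of arrays, above all the 2 of Fl/Fl cells, limits the precision.

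The null arrays did not form 1 kind. Replicates 1 to 5 of the null group measured 217, 13, 648, 594 and 680 for Eif2s3y, a gene of the Y chromosome, against 234 and 184 in Fl/Fl replicates 1 and 2. Meg3, a maternally expressed imprinted RNA, measured 1221, 287, 21, 33 and 88 in the null arrays, against 653 and 1182 in the Fl/Fl arrays. Tmem87a, a membrane protein gene, measured 12, 9, 247, 311 and 280 in the null arrays, against 10 and 9 in the Fl/Fl arrays. Null replicates 1 and 2 thus lay with the Fl/Fl arrays in Tmem87a and replicates 3 to 5 lay apart from both in all of these genes, while null replicate 2 alone was at the floor for Eif2s3y. Actin control probes at the 3′ end of the transcript, over those at its 5′ end, give a measure of RNA integrity, and this ratio was 1.565 and 1.545 in null replicates 1 and 2 and 1.288 to 1.313 in replicates 3 to 5, against 1.546 and 1.48 in the Fl/Fl arrays. Pearson correlations over all genes were at least 0.9956 among null replicates 3 to 5, 0.992 between null replicates 1 and 2, and 0.9834 to 0.9866 between these sets; the Fl/Fl arrays correlated at 0.9967 with each other. Counts over all genes, over the pooled lists and for some single lists are therefore also given with null replicates 3 to 5 alone and with null replicates 1 and 2 alone. For these counts the same Eif2s3y limit of 400 was applied to the null arrays of every day. The sets hold different numbers of arrays, so a smaller count need not mean a smaller difference. The part of this split in the results was not tested.

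Jarid2 itself measured 1206, 1191, 781, 927 and 926 in null cells, against 589 and 481 in Fl/Fl cells. Every null array lay above both Fl/Fl arrays, by 0.89 on the log2 scale (SE 0.24, adjusted p = 0.0186, limma). The call ended without Fl/Fl replicate 1 (adjusted p = 0.0687) and without Fl/Fl replicate 2 (adjusted p = 0.277). At day 0, mean intensity of Jarid2 was 3299 ± 679 in null cells (SD, n = 3) and 3337.5 ± 3.5 in Fl/Fl cells (SD, n = 2), and at day 8 it measured 920 and 383 in null cells, against 319 and 416 in Fl/Fl cells. Which part of the gene was deleted, and where this probe set lies relative to it, is stated in none of the labels, so the level of Jarid2 cannot check the genotypes. Of 11 genes of PRC2 and its partners, 3 rose in null cells, Jarid2, Suz12 and Rbbp7, and 0 fell, beside 3.47% of all genes that rose, and the number was 1 without either Fl/Fl array. Suz12, a core subunit of the complex, measured 1628, 1103, 1336, 1419 and 1567 in null cells, against 944 and 817 in Fl/Fl cells (log2 difference 0.67, SE 0.20, adjusted p = 0.0363, and 0.0613 to 0.362 when null replicate 1, 4 or 5 or either Fl/Fl array was left out). The catalytic subunit gene Ezh2 (log2 difference 0.36, adjusted p = 0.553) and Eed, whose product binds methylated histone H3 (log2 difference 0.10, adjusted p = 0.972), did not pass.

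Over all genes, 1806 passed (9.93%), of which 631 rose in null cells (3.47%) and 1175 fell (6.46%), and the median difference was 0. At least a 2-fold change was seen in 227 (1.25%) of all genes upward and 678 (3.73%) downward. In 1863 genes (10.2%) every null array lay above both Fl/Fl arrays, and in 2679 (14.7%) every null array lay below both. Scaling moved the split: 1013 rose and 1083 fell after quantile normalization, and 1009 rose and 1018 fell with the 75th percentiles brought to one level. With null replicates 3 to 5 alone 1617 genes rose and 2580 fell, and with null replicates 1 and 2 alone 141 rose and 167 fell.

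Pluripotency genes that passed the test were higher in null cells, with 1 exception. The gene lists here and below were chosen with earlier results of these data known. Their counts describe the data and are no independent support. Of 72 measured genes on the 5 pluripotency lists, 25 rose in null cells and 1 fell, with a median log2 difference of 0.50, beside 3.47% of all genes that rose, 6.46% that fell and the all-gene median of 0. Leaving out 1 array at a time, the number that rose was 11 to 27, lowest without Fl/Fl replicate 2 and 15 without Fl/Fl replicate 1. It was 34, with 7 that fell, for null replicates 3 to 5 alone and 8, with 2 that fell, for null replicates 1 and 2 alone. Median log2 differences of these sets were 0.61 and 0.39, in that order. In RNA from whole cultures, fewer cells of a type and less RNA per cell cannot be told apart, here or in any list below. Of the 72 genes, 10 had an intensity of 20 or less on all 7 arrays, against 8224 of all 18194 genes. By list, core factors, Nodal and FGF genes and epiblast factors held 21 of the 25, and no naive factor rose, though 1 passed after either rescaling.

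Pou5f1 measured 4197, 2737, 3756, 4981 and 4795 in null cells, against 384 and 494 in Fl/Fl cells. Even the lowest null array, replicate 2, lay far above both Fl/Fl arrays. Its log2 difference was 3.19 (SE 0.32, 9.12-fold, adjusted p = 8.84e-07), 3.35 with null replicates 3 to 5 alone and 2.95 with null replicates 1 and 2 alone. Nanog measured 1418, 684, 1182, 1551 and 1928 in null cells, against 160 and 209 in Fl/Fl cells, a log2 difference of 2.78 (SE 0.42, 6.87-fold, adjusted p = 0.000196). Replicate 2 was the lowest null array and still lay well above the Fl/Fl arrays. Sox2 measured 689, 883, 1150, 1321 and 1428 in null cells, against 231 and 183 in Fl/Fl cells, a log2 difference of 2.34 (SE 0.29, 5.06-fold, adjusted p = 1.9e-05). Utf1, a chromatin protein of undifferentiated cells and the germline, measured 169, 158, 418, 568 and 557 in null cells, against 25 and 56 in Fl/Fl cells (log2 difference 2.98, SE 0.46, adjusted p = 0.000222). For both genes the groups did not overlap, and null replicates 1 and 2 lay below null replicates 3 to 5. In all, 5 of the 10 measured core factors rose and 0 fell, with a median log2 difference of 0.94. The fifth, Mybl2, a regulator of cell cycle genes, rose by 0.98 (adjusted p = 0.0163), a call that ended without Fl/Fl replicate 1 (adjusted p = 0.133) or 2 (adjusted p = 0.144). Sall4, a zinc finger partner of OCT4, measured 3231, 2794, 1776, 2081 and 2084 in null cells, against 1417 and 1244 in Fl/Fl cells. The Sall4 groups did not overlap, but the difference of 0.81 did not pass (SE 0.29, adjusted p = 0.0828, and 0.0322 with the 75th percentiles brought to one level).

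**Figure D1:**
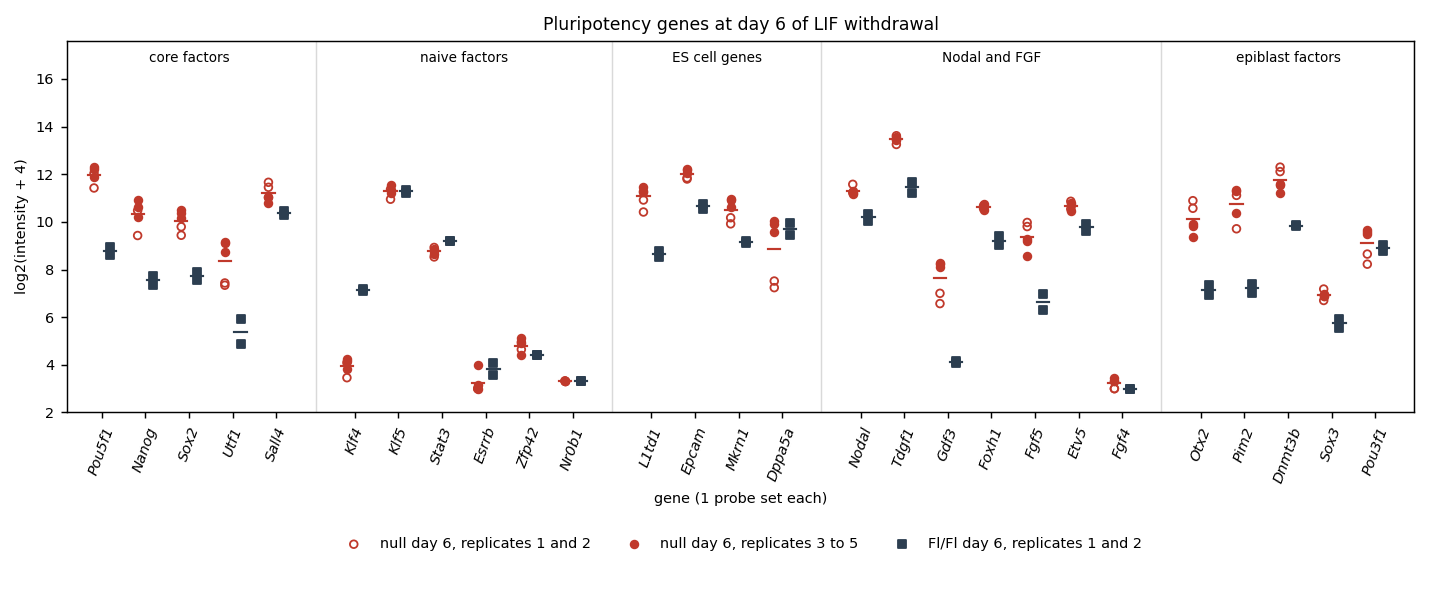
Each point is 1 array at day 6, on the log2(intensity + 4) axis, for pluripotency genes grouped by function. Null arrays stand left (open circles, replicates 1 and 2; filled circles, replicates 3 to 5) and Fl/Fl arrays right (squares), with a line at each group's mean. Pou5f1, Nanog, Sox2, Gdf3, Otx2 and Pim2 lie higher on every null array than on either Fl/Fl array, while Klf4 lies lower on every null array.

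The naive factors showed another picture. Of 14 measured, 0 rose and 1 fell, and the median log2 difference was 0.00. Klf4, a Krüppel-like factor of the naive state that is also made by differentiated epithelia, measured 7, 13, 14, 10 and 15 in null cells, against 132 and 140 in Fl/Fl cells. It fell by 3.17 on the log2 scale (SE 0.48, 9.03-fold lower, adjusted p = 0.000177). At day 0 it had averaged 1152 ± 311 in null cells (SD, n = 3) and 1209.5 ± 501.3 in Fl/Fl cells (SD, n = 2), so that it was far below its starting level in both genotypes at day 6. Esrrb, a nuclear receptor of naive cells, measured 4 to 12 in null cells, against 8 and 13 in Fl/Fl cells. Zfp42, the gene of the marker REX1, measured 17 to 31 in null cells, against 17 on both Fl/Fl arrays. Nr0b1, an orphan nuclear receptor of naive cells, measured 6 on all 7 arrays. These markers of the naive state lay near the floor in both genotypes, and the adjusted p was 0.329 for Esrrb, 0.655 for Zfp42 and 1 for Nr0b1. Klf5, another Krüppel-like factor of the naive state, measured 1973 to 2977 in null cells, against 2387 and 2560 in Fl/Fl cells (log2 difference 0.01, adjusted p = 1). Stat3, the transcription factor that LIF activates, measured 365 to 482 in null cells, against 584 and 582 in Fl/Fl cells (log2 difference -0.44, adjusted p = 0.191).

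Among 17 other genes of undifferentiated ES cells, 4 rose and 0 fell, with a median log2 difference of 0.06. L1td1, an RNA-binding protein of ES cells, measured 1929, 1359, 2441, 2522 and 2844 in null cells, against 362 and 438 in Fl/Fl cells. The gap between the groups was wide next to the spread within each (log2 difference 2.42, SE 0.21, 5.35-fold, adjusted p = 1.06e-07). Epcam, an adhesion molecule of ES cells and epithelia, measured 3556, 3673, 4279, 4570 and 4811 in null cells, against 1491 and 1714 in Fl/Fl cells (log2 difference 1.37, SE 0.12, 2.59-fold, adjusted p = 2.63e-07). Mkrn1, a ubiquitin ligase, rose by 1.35 (adjusted p = 0.00107). Upp1, uridine phosphorylase, rose by 2.69 (adjusted p = 0.0146), a call that ended without Fl/Fl replicate 1 (adjusted p = 0.108) or 2 (adjusted p = 0.151). Cdh1, the E-cadherin gene, measured 5535 to 8477 in null cells, against 7202 and 7350 in Fl/Fl cells, and the groups overlapped (log2 difference 0.01, adjusted p = 1). Lin28a, an RNA-binding protein that blocks let-7 processing, measured 3462 to 4574 in null cells, against 3646 and 2997 in Fl/Fl cells (log2 difference 0.33, adjusted p = 0.554). Dppa5a, an RNA-binding protein of ES cells, measured 179 and 147 in null replicates 1 and 2 and 750, 1058 and 948 in null replicates 3 to 5, against 688 and 985 in Fl/Fl cells. Null replicates 1 and 2 lay below the Fl/Fl arrays and null replicates 3 to 5 among or above them, and the difference of -0.84 did not pass (SE 0.64, adjusted p = 0.594).

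Genes of Nodal and FGF signalling in the epiblast held the highest share of rises among the pluripotency lists, 10 of 17, with 0 that fell and a median log2 difference of 1.12. That count hung on the Fl/Fl arrays and was 1 without Fl/Fl replicate 2. Among the ligands, Nodal, a TGF-beta family signal of the epiblast, measured 2388, 3047, 2331, 2526 and 2382 in null cells, against 1047 and 1284 in Fl/Fl cells (log2 difference 1.12, SE 0.28, adjusted p = 0.0122). Gdf3, a related ligand, measured 124, 91, 272, 307 and 295 in null cells, against 14 and 13 in Fl/Fl cells (log2 difference 3.51, SE 0.42, 11.4-fold, adjusted p = 1.28e-05). Gdf3 was the gene of this list with the smallest adjusted p, and null replicates 1 and 2 were its lowest null arrays. Lefty1, a secreted inhibitor of Nodal, measured 705, 924, 455, 406 and 439 in null cells, against 192 and 225 in Fl/Fl cells (log2 difference 1.40, SE 0.40, adjusted p = 0.0275). Tdgf1, the Nodal co-receptor Cripto, measured 12530, 9720, 10930, 11266 and 12063 in null cells, against 3290 and 2400 in Fl/Fl cells (log2 difference 2.00, SE 0.62, adjusted p = 0.0435). For both, every null array lay above both Fl/Fl arrays. Foxh1, the DNA-binding partner of SMAD proteins in Nodal signalling, measured 1459 to 1731 in null cells, against 671 and 514 in Fl/Fl cells (log2 difference 1.43, adjusted p = 0.00234). Fgf5, a ligand of the implanted epiblast, measured 1002, 889, 378, 581 and 617 in null cells, against 121 and 74 in Fl/Fl cells (log2 difference 2.74, SE 0.52, adjusted p = 0.00148). Here null replicates 1 and 2 were the highest of the null arrays. Etv5, an ETS factor downstream of FGF, rose by 0.91 (adjusted p = 0.00262) and Spry2, a feedback inhibitor of receptor tyrosine kinases, rose by 1.23 (adjusted p = 0.00845). Fgf4, the FGF of undifferentiated ES cells, was at the floor, with 4 to 7 in null cells and 4 on both Fl/Fl arrays. Without Fl/Fl replicate 2 the adjusted p was 0.0736 for Nodal, 0.155 for Lefty1, 0.357 for Tdgf1, 0.0853 for Foxh1, 0.0645 for Fgf5, 0.106 for Etv5 and 0.147 for Spry2. Without Fl/Fl replicate 1 it was 0.17 for Nodal, 0.221 for Lefty1, 0.157 for Tdgf1 and 0.0532 for Spry2. Without 1 null array it was up to 0.0723 for Tdgf1 and 0.055 for Lefty1.

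Of 14 factors of the formative and primed epiblast, 6 rose and 0 fell, with a median log2 difference of 0.89. The number that rose was 4 without Fl/Fl replicate 1 and 3 without Fl/Fl replicate 2. With null replicates 3 to 5 alone 7 rose and 4 fell, and with null replicates 1 and 2 alone 2 rose and 0 fell. Median log2 differences of these sets were 0.76 and 1.41, in that order. Otx2, a homeodomain factor that directs cells from the naive to the primed state, measured 1891, 1515, 654, 968 and 905 in null cells, against 160 and 117 in Fl/Fl cells (log2 difference 2.98, SE 0.49, 7.87-fold, adjusted p = 0.000462). The groups did not overlap, and null replicates 1 and 2 were the highest. Pim2, a serine/threonine kinase, measured 2208, 833, 1308, 2506 and 2546 in null cells, against 124 and 166 in Fl/Fl cells (log2 difference 3.55, SE 0.41, 11.7-fold, adjusted p = 7.7e-06). Dnmt3b, a de novo DNA methyltransferase, measured 5025, 4412, 2349, 3003 and 3110 in null cells, against 897 and 931 in Fl/Fl cells (log2 difference 1.91, SE 0.36, adjusted p = 0.00133). Car4, carbonic anhydrase 4, rose by 2.75 (adjusted p = 0.0058, and 0.144 without Fl/Fl replicate 2). Sox3, an HMG-box factor close to SOX2, rose by 1.18 (adjusted p = 0.0135, and 0.234 without Fl/Fl replicate 2 or 0.0535 without Fl/Fl replicate 1). Pou3f1, a POU factor of the primed epiblast and neural plate, measured 295 and 397 in null replicates 1 and 2 and 724, 754 and 803 in null replicates 3 to 5, against 435 and 515 in Fl/Fl cells. The arrays of Fl/Fl cells lay between the null sets, and Pou3f1 did not pass (log2 difference 0.22, adjusted p = 0.983).

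Mesenchymal genes lay the other way. Of 139 measured genes on the 9 mesenchymal lists, 58 fell in null cells and 2 rose, with a median log2 difference of -0.93, beside 6.46% of all genes that fell and 3.47% that rose. In 90 of the 139 every null array lay below both Fl/Fl arrays, beside 14.7% of all genes. Leaving out 1 array at a time, 32 to 60 fell, lowest without Fl/Fl replicate 2 and 36 without Fl/Fl replicate 1. With null replicates 3 to 5 alone 82 fell and 5 rose, and with null replicates 1 and 2 alone 15 fell and 1 rose. The median log2 difference was close in these sets, -0.86 and -0.77 in that order. Of the 139 genes, 28 had an intensity of 20 or less on all 7 arrays.

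Among 8 fibrillar collagen genes, 5 fell, 1 rose and 2 did not pass, with a median log2 difference of -2.92. Col1a1 measured 41, 39, 58, 59 and 82 in null cells, against 1377 and 1799 in Fl/Fl cells, a fall of 27.3-fold (log2 difference -4.77, SE 0.56, adjusted p = 1.11e-05). Col1a2, the partner chain of type I collagen, measured 17, 18, 17, 17 and 13 in null cells, against 284 and 291 in Fl/Fl cells (log2 difference -3.84, SE 0.41, 14.3-fold lower, adjusted p = 2.93e-06). Both chains of type I collagen were low on every null array. Col3a1, the chain of type III collagen, measured 9, 19, 9, 8 and 8 in null cells, against 283 and 336 in Fl/Fl cells (log2 difference -4.47, SE 0.71, 22.1-fold lower, adjusted p = 0.000308). Col11a1, which nucleates fibrils with type II collagen, measured 12, 18, 12, 10 and 12 in null cells, against 465 and 698 in Fl/Fl cells (log2 difference -5.11, SE 0.69, 34.6-fold lower, adjusted p = 5.75e-05). Col5a1, which sets the diameter of type I fibrils, stayed well above the floor, with 511, 942, 575, 374 and 391 in null cells, against 1975 and 2268 in Fl/Fl cells. It fell by 2.00 (SE 0.43, adjusted p = 0.00415, and 0.0835 without Fl/Fl replicate 2). Col2a1, the collagen of cartilage and notochord, rose, with 96, 198, 351, 415 and 281 in null cells, against 84 and 78 in Fl/Fl cells (log2 difference 1.52, SE 0.41, adjusted p = 0.0201). That call ended without Fl/Fl replicate 1 (adjusted p = 0.126) or 2 (adjusted p = 0.193), and null replicates 1 and 2 were the lowest null arrays. Col5a2 measured 41 and 22 in null replicates 1 and 2 and 215, 192 and 244 in null replicates 3 to 5, against 134 and 187 in Fl/Fl cells, and did not pass (adjusted p = 0.955).

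**Figure D2:**
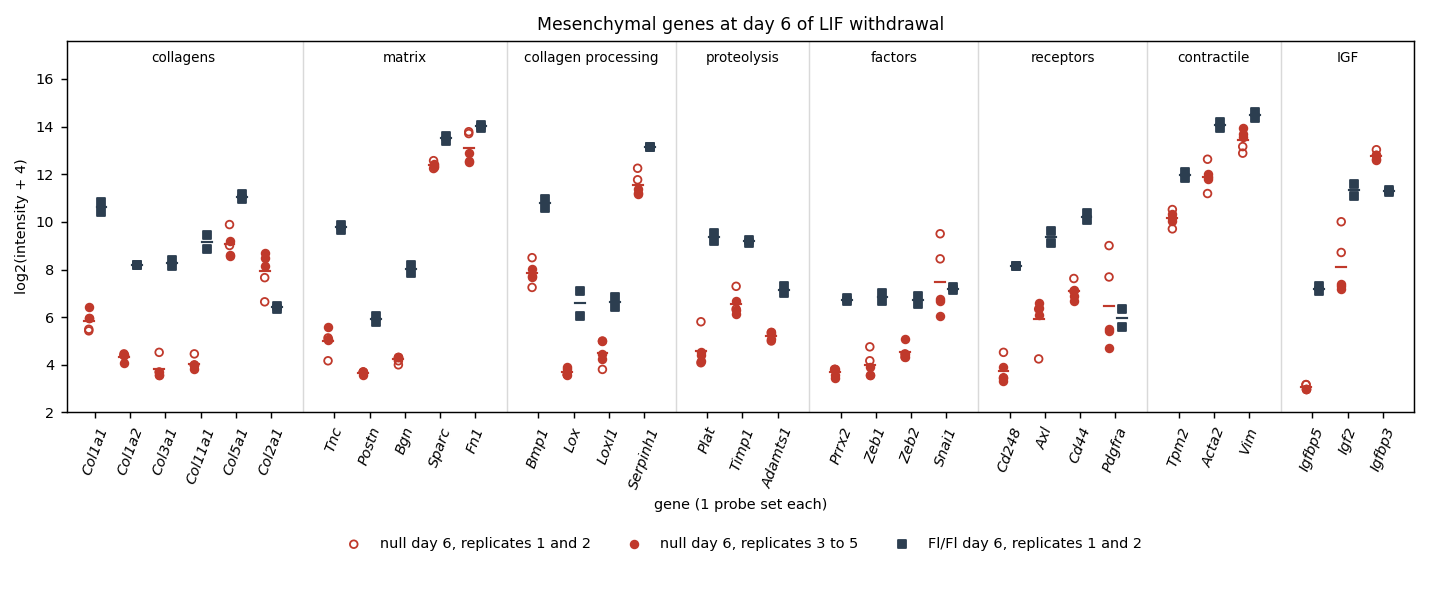
Each point is 1 array at day 6, on the log2(intensity + 4) axis, for mesenchymal genes grouped by function. Null arrays stand left (open circles, replicates 1 and 2; filled circles, replicates 3 to 5) and Fl/Fl arrays right (squares), with a line at each group's mean. Col1a1, Col1a2, Col3a1, Tnc, Bgn, Plat, Cd248 and Igfbp5 lie far lower on every null array than on either Fl/Fl array, Sparc, Fn1 and Vim lie high in both groups, and Col2a1 and Igfbp3 lie higher on every null array.

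Sequence upstream of the start site is shown for some of these genes because the octamer is the element read by OCT4, whose gene was among the largest rises. The letters TTTGCAT, the core of that octamer, and their reverse complement ATGCAAA were searched in the 250 bases before the first listed start of each gene in RefSeq (build GRCm38.p6). They stood in 1096 of 27025 such windows (4.06%). Among the 10 largest rises named below, 7 had a window in that table and 2 of these held the letters (Pim2 and Apela), and among the 10 largest falls 6 had a window and 3 held them (Gadd45g, Col3a1 and Tnc). The windows of Nanog and Sox2, which rose, and Apela, which rose most, are set beside those of Tnc and Col3a1, which fell, and Col1a2, which fell and has no match. Capitals mark the matches, and each line runs 5′ to 3′ along the strand of the gene.
Nanog, chr6:122707239-122707488, plus strand: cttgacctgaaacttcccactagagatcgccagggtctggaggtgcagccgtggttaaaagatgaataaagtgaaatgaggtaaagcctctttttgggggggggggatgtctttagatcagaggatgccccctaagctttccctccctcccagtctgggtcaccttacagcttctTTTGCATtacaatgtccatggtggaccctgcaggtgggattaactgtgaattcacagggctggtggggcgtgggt
Sox2, chr3:34649745-34649994, plus strand: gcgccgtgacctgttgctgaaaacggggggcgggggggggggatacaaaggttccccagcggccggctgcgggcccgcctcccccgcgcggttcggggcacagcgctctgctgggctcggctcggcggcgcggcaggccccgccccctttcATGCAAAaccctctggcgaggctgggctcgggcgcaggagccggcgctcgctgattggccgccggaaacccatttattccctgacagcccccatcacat
Apela, chr8:65037337-65037586, minus strand: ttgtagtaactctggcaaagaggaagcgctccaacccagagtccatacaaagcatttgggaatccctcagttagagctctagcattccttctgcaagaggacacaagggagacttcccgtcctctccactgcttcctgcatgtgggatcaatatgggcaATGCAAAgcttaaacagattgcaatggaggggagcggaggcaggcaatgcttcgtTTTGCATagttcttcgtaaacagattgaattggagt
Tnc, chr4:64047016-64047265, minus strand: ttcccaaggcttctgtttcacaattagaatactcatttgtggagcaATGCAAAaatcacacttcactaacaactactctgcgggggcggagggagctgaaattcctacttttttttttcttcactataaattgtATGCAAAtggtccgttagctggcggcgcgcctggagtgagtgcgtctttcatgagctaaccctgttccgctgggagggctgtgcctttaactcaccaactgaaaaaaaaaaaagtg
Col3a1, chr1:45311288-45311537, plus strand: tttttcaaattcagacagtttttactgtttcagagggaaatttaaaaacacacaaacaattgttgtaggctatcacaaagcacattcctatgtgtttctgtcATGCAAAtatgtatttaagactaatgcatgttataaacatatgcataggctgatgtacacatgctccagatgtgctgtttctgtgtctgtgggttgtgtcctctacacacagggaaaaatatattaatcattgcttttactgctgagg
Col1a2, chr6:4505368-4505617, plus strand: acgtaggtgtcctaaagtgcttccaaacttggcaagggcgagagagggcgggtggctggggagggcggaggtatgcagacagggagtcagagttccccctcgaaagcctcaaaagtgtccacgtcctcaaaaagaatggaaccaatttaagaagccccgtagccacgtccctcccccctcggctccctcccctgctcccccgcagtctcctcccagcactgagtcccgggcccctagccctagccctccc
The match in Nanog began 75 bases before the start and that in Sox2 99 bases before it, and Apela and Tnc each held a pair of matches. Windows with the letters were found among genes that rose and genes that fell. These matches describe the sequence only, and no binding was measured.

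Of 24 measured matrix glycoproteins and proteoglycans, 9 fell and 0 rose, with a median log2 difference of -0.42, and 10 of the 24 had an intensity of 20 or less on all 7 arrays. Leaving out 1 array at a time left 3 to 9 that fell, with 3 and 6 without Fl/Fl replicate 1 or 2, and 5 without null replicate 4 or 5. Tnc, tenascin C, a matrix protein of developing mesenchyme, measured 14, 31, 44, 29 and 30 in null cells, against 811 and 930 in Fl/Fl cells (log2 difference -4.77, SE 0.38, 27.2-fold lower, adjusted p = 3.32e-08). Bgn, the proteoglycan biglycan, measured 12, 14, 16, 16 and 16 in null cells, against 288 and 226 in Fl/Fl cells (log2 difference -3.79, SE 0.48, adjusted p = 2.34e-05). Postn, periostin, a matrix protein of fibroblasts, measured 9, 9, 9, 9 and 8 in null cells, against 62 and 52 in Fl/Fl cells (log2 difference -2.25, SE 0.24, adjusted p = 2.83e-06). On every null array all of these genes lay far below both Fl/Fl arrays. Others kept high levels in null cells. Sparc, a calcium-binding matrix protein, measured 4820 to 6066 in null cells, against 12432 and 10821 in Fl/Fl cells (log2 difference -1.12, SE 0.22, adjusted p = 0.002, and 0.0513 without Fl/Fl replicate 1). Fn1, fibronectin, measured 13343 and 14078 in null replicates 1 and 2 and 7610, 6010 and 5878 in null replicates 3 to 5, against 15890 and 16986 in Fl/Fl cells. It fell by 0.91 (SE 0.26, adjusted p = 0.0306), by 1.35 with null replicates 3 to 5 alone and by 0.26 with null replicates 1 and 2 alone. Its call ended in 5 of the 7 analyses that left out 1 array, with an adjusted p of up to 0.256. Vcan, versican, fell by 2.25 (adjusted p = 0.0113, and 0.0966 or 0.12 without Fl/Fl replicate 1 or 2). Thbs1, thrombospondin 1, measured 695 to 4665 in null cells, against 4538 and 6982 in Fl/Fl cells, and did not pass (adjusted p = 0.413). Lum and Dcn encode small proteoglycans of mature fibroblasts. Lum measured 5 or 6 in both groups, and Dcn measured 8 to 18 in null cells, against 9 and 11 in Fl/Fl cells, so both genes lay near the floor throughout.

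Of 14 genes that process or cross-link collagen 7 fell and 0 rose, with a median log2 difference of -1.06, and the number was 4 without Fl/Fl replicate 2. Bmp1, which cleaves the C-terminal propeptide of procollagen, measured 148, 357, 257, 210 and 204 in null cells, against 1537 and 2006 in Fl/Fl cells (log2 difference -2.94, SE 0.42, adjusted p = 0.000109). Its enhancer Pcolce fell by 1.59 (adjusted p = 0.00255). Plod1, a lysyl hydroxylase, fell by 1.82 (adjusted p = 0.000637). Loxl1, a cross-linking amine oxidase, measured 10 to 28 in null cells, against 82 and 112 in Fl/Fl cells (log2 difference -2.14, adjusted p = 0.000914). Lox, lysyl oxidase, measured 8 to 11 in null cells, against 63 and 133 in Fl/Fl cells (log2 difference -2.89, adjusted p = 0.00787, and 0.193 without Fl/Fl replicate 2). Serpinh1, the collagen chaperone HSP47, kept a high level, with 2282 to 4863 in null cells, against 9071 and 8985 in Fl/Fl cells (log2 difference -1.59, adjusted p = 0.00414, and 0.0535 or 0.0657 without Fl/Fl replicate 1 or 2). Genes for propeptide cleavage, lysine hydroxylation, chaperoning and cross-linking were all among those that fell.

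Of 14 matrix proteases and their inhibitors, 7 fell and 0 rose, with a median log2 difference of -1.0, and 4 fell without Fl/Fl replicate 1 and 3 without Fl/Fl replicate 2. Plat, tissue plasminogen activator, measured 13, 52, 14, 17 and 19 in null cells, against 588 and 737 in Fl/Fl cells (log2 difference -4.78, SE 0.48, 27.4-fold lower, adjusted p = 1.12e-06). Timp1, an inhibitor of metalloproteinases, measured 77, 153, 75, 97 and 67 in null cells, against 555 and 598 in Fl/Fl cells (log2 difference -2.63, SE 0.33, adjusted p = 2.32e-05). Null replicate 2 was the highest null array for both. Timp2 fell by 2.94 (adjusted p = 0.00668, and 0.148 without Fl/Fl replicate 2), and Adamts1, a secreted protease that cleaves versican, fell by 1.93 (adjusted p = 2.9e-05). Mmp11, stromelysin 3, fell by 1.61 (adjusted p = 0.00488, and 0.0736 or 0.0587 without Fl/Fl replicate 1 or 2). Mmp14, a membrane-bound metalloproteinase, measured 325 to 809 in null cells, against 937 and 984 in Fl/Fl cells, and did not pass (log2 difference -1.01, adjusted p = 0.0848).

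The transcription factors and cadherins of mesenchyme were 7 of 19 lower and 0 higher, with a median log2 difference of -0.51, and 7 of the 19 had an intensity of 20 or less on all 7 arrays. The number that fell was 4 without Fl/Fl replicate 1 and 5 without Fl/Fl replicate 2. With null replicates 3 to 5 alone 11 fell, and with null replicates 1 and 2 alone 2 fell. Median log2 differences of these sets were -0.7 and -0.29, in that order. Prrx2, a homeobox factor of limb and facial mesenchyme, measured 10, 10, 8, 7 and 10 in null cells, against 97 and 109 in Fl/Fl cells (log2 difference -3.05, SE 0.29, adjusted p = 4.46e-07). Zeb1 and Zeb2 are repressors of E-cadherin in the epithelial-mesenchymal transition. Zeb1 measured 14, 23, 11, 8 and 8 in null cells, against 127 and 97 in Fl/Fl cells (log2 difference -2.85, SE 0.45, adjusted p = 0.000273), and Zeb2 measured 18, 16, 30, 18 and 16 in null cells, against 89 and 114 in Fl/Fl cells (log2 difference -2.18, SE 0.34, adjusted p = 0.000229). Twist2, a basic helix-loop-helix factor, measured 6 on each null array, against 14 and 59 in Fl/Fl cells. It fell by 1.75 (adjusted p = 0.00618) but by 0.85 without Fl/Fl replicate 2 (adjusted p = 0.426) and by 2.66 without Fl/Fl replicate 1. Foxc1, a forkhead factor, measured 11 or 12 in null cells, against 20 and 17 in Fl/Fl cells, all near the floor (log2 difference -0.51, adjusted p = 0.00346, and 0.107 without Fl/Fl replicate 1 or 0.089 with the 75th percentiles brought to one level). The other Foxc1 probe set averaged 14.2 in null cells and 96.5 in Fl/Fl cells. Its log2 difference was -2.47 (adjusted p = 2.13e-05, limma, adjusted over all probe sets with 1 gene). Snai1, the gene of SNAIL, which also represses E-cadherin, measured 720 and 345 in null replicates 1 and 2 and 63, 106 and 98 in null replicates 3 to 5, against 152 and 135 in Fl/Fl cells. Fl/Fl arrays lay between the null sets, and Snai1 did not pass (log2 difference 0.29, adjusted p = 1). Cdh2, N-cadherin, measured 1062 to 2140 in null cells, against 3678 and 2751 in Fl/Fl cells (log2 difference -1.18, adjusted p = 0.128).

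Among 19 receptors and surface proteins, 7 fell and 0 rose, with a median log2 difference of -0.86. Cd248, endosialin, a surface protein of stromal cells and pericytes, measured 7, 19, 7, 6 and 11 in null cells, against 282 and 281 in Fl/Fl cells (log2 difference -4.42, SE 0.31, 21.5-fold lower, adjusted p = 5.22e-09). Cd44, the hyaluronan receptor, measured 132, 193, 113, 138 and 98 in null cells, against 1306 and 1087 in Fl/Fl cells (log2 difference -3.14, SE 0.51, adjusted p = 0.000355). Axl, a receptor tyrosine kinase for GAS6, measured 15, 77, 64, 93 and 80 in null cells, against 546 and 787 in Fl/Fl cells (log2 difference -3.43, SE 0.53, adjusted p = 0.000212). For each the groups lay far apart. Tgfbr2, the type II TGF-beta receptor, fell by 2.29 (adjusted p = 0.00062). Pdgfrb, a receptor of fibroblasts and pericytes, measured 57, 63, 19, 26 and 22 in null cells, against 191 and 171 in Fl/Fl cells (log2 difference -2.30, SE 0.41, adjusted p = 0.000966). Pdgfra, a receptor of early mesoderm as well as fibroblasts, measured 509 and 202 in null replicates 1 and 2 and 39, 42 and 22 in null replicates 3 to 5, against 77 and 44 in Fl/Fl cells. It overlapped between the groups and did not pass (log2 difference 0.51, SE 0.95, adjusted p = 1).

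Of 19 contractile and cytoskeletal genes 5 fell and 0 rose, beside 6.46% of all genes that fell and 3.47% that rose, with a median log2 difference of -0.93. In 18 of the 19 every null array lay below both Fl/Fl arrays, beside 14.7% of all genes. Leaving out 1 array at a time left 1 to 4 that fell, with 1 without either Fl/Fl array and 3 without null replicate 1, 4 or 5. With null replicates 3 to 5 alone 11 fell and 1 rose, and with null replicates 1 and 2 alone 0 fell and 0 rose. The median log2 difference was close in these sets, -0.77 and -0.83 in that order. Tpm2, a tropomyosin, measured 831, 1460, 1297, 1037 and 1130 in null cells, against 3625 and 4318 in Fl/Fl cells (log2 difference -1.80, SE 0.31, adjusted p = 0.000724). Tpm1 fell by 0.77 (adjusted p = 0.0265) and Actg2, the enteric smooth muscle actin, by 1.96 (adjusted p = 0.0144). Both calls ended without Fl/Fl replicate 1, with an adjusted p of 0.161 for Tpm1 and 0.0787 for Actg2, and without Fl/Fl replicate 2, with 0.209 for Tpm1 and 0.191 for Actg2. Acta2, smooth muscle actin, measured 2329, 6323, 4091, 3803 and 3521 in null cells, against 15472 and 18817 in Fl/Fl cells, and Vim, vimentin, measured 7545, 9135, 15730, 13006 and 11929 in null cells, against 25055 and 21067 in Fl/Fl cells. The groups did not overlap for either gene, yet neither passed, with a log2 difference of -2.16 (SE 0.86, adjusted p = 0.132) for Acta2 and -1.05 (SE 0.48, adjusted p = 0.207) for Vim. Tagln, transgelin, measured 7951 to 11585 in null cells, against 14498 and 16953 in Fl/Fl cells (log2 difference -0.61, adjusted p = 0.369).

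Annexins and S100 proteins bind calcium and membranes and are abundant in stromal cells. Of 11 measured, 6 fell and 0 rose, with a median log2 difference of -0.89, and the count was 1 without Fl/Fl replicate 2. S100a6 measured 1580, 2031, 1878, 1293 and 1355 in null cells, against 9762 and 10715 in Fl/Fl cells (log2 difference -2.67, SE 0.49, adjusted p = 0.0012). Anxa1 measured 778, 2560, 1488, 1199 and 1163 in null cells, against 8777 and 10722 in Fl/Fl cells (log2 difference -2.87, SE 0.61, adjusted p = 0.004, and 0.0823 without Fl/Fl replicate 2). Anxa5 fell by 2.11 (adjusted p = 0.00452, and 0.0826 without Fl/Fl replicate 2). S100a10, the partner of annexin A2, was close in level between the groups, with 13896 to 15344 in null cells, against 15394 and 16002 in Fl/Fl cells (log2 difference -0.10, SE 0.14, adjusted p = 0.985).

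Of 11 genes for IGF binding proteins and imprinted growth control, 5 fell and 1 rose, with a median log2 difference of -1.36, and 3 fell without Fl/Fl replicate 1 and 2 without Fl/Fl replicate 2. Igfbp5, which binds IGFs in the matrix, measured 5, 5, 4, 4 and 4 in null cells, against 153 and 133 in Fl/Fl cells (log2 difference -4.13, SE 0.12, 17.5-fold lower, adjusted p = 1.94e-15). It was at the floor on every null array. On every array of days 0, 2 and 4, of both genotypes, it measured 4 to 6, and those arrays enter the estimate of its spread. Igf2, the paternally expressed growth factor, measured 416 and 1023 in null replicates 1 and 2 and 153, 164 and 140 in null replicates 3 to 5, against 3109 and 2197 in Fl/Fl cells. It fell by 3.24 (SE 0.88, adjusted p = 0.0203), with an adjusted p of 0.187 without Fl/Fl replicate 1 and 0.128 without Fl/Fl replicate 2. The receptor that clears IGF2, Igf2r, measured 350, 606, 362, 404 and 386 in null cells, against 1033 and 1101 in Fl/Fl cells (log2 difference -1.36, SE 0.23, adjusted p = 0.000579). Igfbp7 fell by 2.88 (adjusted p = 0.00382, and 0.0894 without Fl/Fl replicate 2). Igfbp3, the main IGF carrier in serum, went the other way, with 8342, 7100, 7080, 6374 and 6194 in null cells, against 2466 and 2559 in Fl/Fl cells (log2 difference 1.47, SE 0.21, adjusted p = 9.64e-05).

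**Figure D3:**
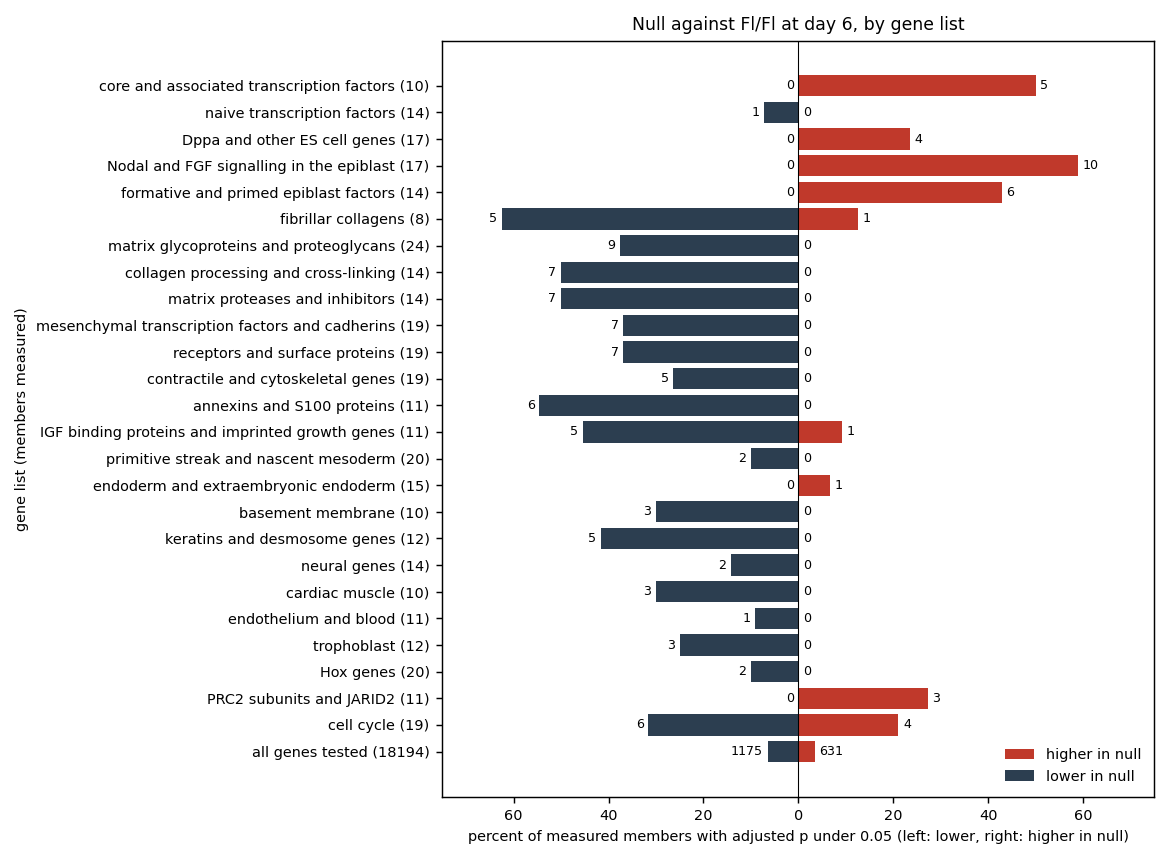
Bars give the percent of the measured members of each gene list with an adjusted p under 0.05, to the right for genes higher in null and to the left for genes lower in null, with the number of genes at the end of each bar and the number measured after the name of the list. The bottom bar holds all 18194 genes (631 higher, 1175 lower). Pluripotency lists other than the naive factors run right and the mesenchymal lists run left.

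Among all genes past the threshold whose arrays did not overlap, the 10 largest rises were Apela, Olig1, Ina, Enpp3, Pim2, Gdf3, Olig2, Pou5f1, Trh and Alox15. Apela, which encodes the apelin receptor ligand ELABELA made by human ES cells, measured 1274, 851, 2838, 3426 and 3187 in null cells, against 34 and 83 in Fl/Fl cells (log2 difference 5.14, SE 0.42, 35.2-fold, adjusted p = 5.25e-08, and 4.54 or 5.74 without Fl/Fl replicate 1 or 2). Olig1, a basic helix-loop-helix factor best known from oligodendrocytes, measured 281, 135, 190, 349 and 316 in null cells, against 3 and 4 in Fl/Fl cells (log2 difference 5.03, SE 0.31, 32.6-fold, adjusted p = 8.14e-10). Its neighbour in the family, Olig2, measured 58, 60, 106, 214 and 223 in null cells, against 8 on both Fl/Fl arrays (log2 difference 3.28, adjusted p = 0.000106). Ina, an intermediate filament of neurons, measured 39 on null replicate 2 and 172 to 271 on the other null arrays, against 7 on both Fl/Fl arrays. Alox15, a lipoxygenase, rose by 3.13 (adjusted p = 4.32e-05), Enpp3, an ectonucleotide pyrophosphatase, by 3.77 (adjusted p = 1.72e-06) and Trh, thyrotropin releasing hormone, by 3.13 (adjusted p = 0.0152, and 0.0545 or 0.26 without Fl/Fl replicate 1 or 2). The 10 largest falls were Col11a1, Plat, Col1a1, Tnc, Emp1, Gadd45g, Col3a1, Runx1, Cd248 and Tnfsf9. Of these 10, 6 were on the mesenchymal lists, which hold 139 of the 18194 genes. The lists were chosen with earlier results of these data known, so this overlap is no independent support. Emp1, an epithelial membrane protein, measured 13, 43, 6, 37 and 37 in null cells, against 657 and 648 in Fl/Fl cells (log2 difference -4.62, SE 0.72, adjusted p = 0.000227). Runx1, a runt-domain factor of blood formation, measured 59 on null replicate 2 and 6 to 8 on the other null arrays, against 378 and 312 in Fl/Fl cells (log2 difference -4.46, SE 0.45, adjusted p = 1.34e-06). Gadd45g, a stress-response gene, fell by 4.52 (adjusted p = 0.00144) and Tnfsf9, the ligand of 4-1BB, by 4.36 (adjusted p = 9.31e-08).

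The lists for other fates are read beside the 6.46% of all genes that fell and the 3.47% that rose. Of 20 genes of the primitive streak and nascent mesoderm, 2 fell and 0 rose, and 1 fell without Fl/Fl replicate 2. With null replicates 3 to 5 alone 8 fell and 2 rose, and with null replicates 1 and 2 alone 1 fell and 0 rose. Median log2 differences of these sets were -0.23 and 0.71, in that order. Bmp4, a signal for mesoderm formation, measured 328, 646, 135, 112 and 112 in null cells, against 2623 and 3185 in Fl/Fl cells (log2 difference -3.79, SE 0.58, adjusted p = 0.000196), and Cdx2, a caudal homeobox gene, fell by 1.26 (adjusted p = 0.0023, and 0.217 without Fl/Fl replicate 2). Mixl1, a homeobox gene of the streak, measured 5127, 3095, 2001, 1312 and 1970 in null cells, against 1843 and 1658 in Fl/Fl cells. Eomes, a T-box gene of streak and endoderm, measured 5060, 3168, 1198, 1374 and 1180 in null cells, against 2244 and 1345 in Fl/Fl cells, and Lhx1, a LIM homeobox gene, measured 4360, 2489, 905, 525 and 617 in null cells, against 745 and 450 in Fl/Fl cells. In all of these, null replicates 1 and 2 were the highest null arrays, the groups overlapped and the adjusted p was 0.709 or more. Foxa2 and Sox17, factors of definitive endoderm, measured 67 and 283 (Foxa2) and 49 and 138 (Sox17) in null replicates 1 and 2 and 4 to 9 (Foxa2) and 8 (Sox17) in null replicates 3 to 5, against 4 (Foxa2) and 8 to 12 (Sox17) in Fl/Fl cells. These genes lay above the floor only in null replicates 1 and 2, and neither passed over all null arrays (adjusted p = 0.258 for Foxa2 and 0.526 for Sox17).

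Of 12 epithelial keratin and desmosome genes 5 fell, beside 6.46% of all genes, and 2 fell without either Fl/Fl array and 3 without null replicate 1, 4 or 5. Krt7, a keratin of simple epithelia and trophoblast, fell by 3.35 (adjusted p = 0.000457), and Dsc2, a desmosomal cadherin, by 2.32 (adjusted p = 5.47e-05). Krt18 measured 6811 to 16260 in null cells, against 29068 and 31160 in Fl/Fl cells (log2 difference -1.73, adjusted p = 0.00666, and 0.0626 or 0.0993 without Fl/Fl replicate 1 or 2). Of 10 basement membrane genes 3 fell, among them Nid1, nidogen, by 2.80 (adjusted p = 0.00049), and Lama1, the laminin chain of the early embryo, by 2.01 (adjusted p = 0.00102). With null replicates 3 to 5 alone 7 of the 10 fell, and with null replicates 1 and 2 alone 0 fell. The median log2 difference was close in these sets, -0.8 and -0.92 in that order. Among 14 neural genes 2 fell, the adhesion molecule gene Ncam1 by 3.02 (adjusted p = 3.32e-08) and the neuronal tubulin gene Tubb3 by 2.04 (adjusted p = 0.000202). Of 10 cardiac genes 3 fell, or 1 without Fl/Fl replicate 2, among them Myl4, an atrial myosin light chain, by 1.96 (adjusted p = 2e-05). Hox genes, textbook targets of PRC2, were mostly at the floor: 15 of 20 had an intensity of 20 or less on all 7 arrays, and 2 fell (1 without Fl/Fl replicate 1 and 0 without Fl/Fl replicate 2) and 0 rose. Hoxd9 measured 25, 44, 10, 10 and 12 in null cells, against 87 and 85 in Fl/Fl cells (log2 difference -2.08, adjusted p = 0.00559, and 0.0664 or 0.0777 without Fl/Fl replicate 1 or 2).

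Of 19 cell cycle genes 4 rose and 6 fell, beside 3.47% of all genes that rose and 6.46% that fell. The number that rose was 1 without Fl/Fl replicate 1, 0 without Fl/Fl replicate 2 and 2 without null replicate 1, 3, 4 or 5, and 4 to 6 fell when 1 array was left out. The D-type cyclin gene Ccnd2 measured 25, 94, 45, 81 and 37 in null cells, against 688 and 668 in Fl/Fl cells (log2 difference -3.64, SE 0.56, adjusted p = 0.000222), and Ccnd1 fell by 1.24 (adjusted p = 6.11e-05). The cyclin-dependent kinase inhibitor genes Cdkn2b and Cdkn1c fell by 3.40 (adjusted p = 0.000209) and 2.82 (adjusted p = 0.000373). Mcm2, a subunit of the replicative helicase, rose by 0.84 (adjusted p = 0.00301, and 0.076 without Fl/Fl replicate 2) and Ccne1, cyclin E1, by 1.10 (adjusted p = 0.0158, and 0.12 or 0.155 without Fl/Fl replicate 1 or 2).

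The labelled cell type was checked with marker sums. Counts of markers that rose or fell are read beside the 3.47% of all genes that rose and the 6.46% that fell. The 6 markers of undifferentiated ES cells summed to 4476 to 9134 in null cells, against 1488 to 1901 in Fl/Fl cells, with 3 of 6 that rose, and Esrrb was at 20 or less on all 7 arrays. The 8 fibroblast markers, which feeder cells would also carry, summed to 135 to 170 in null cells, against 2222 to 2675 in Fl/Fl cells, with 5 of 8 that fell. Dcn, Lum and Thy1 of that list were at 20 or less on all 7 arrays. Col1a1 made up most of the Fl/Fl sum, with 1377 and 1799. Trophoblast markers summed to 72 to 221 in null cells, against 664 to 782 in Fl/Fl cells, with 3 of 5 that fell. Krt7 made up most of the Fl/Fl sum, with means of 54.4 in null cells and 521.0 in Fl/Fl cells. Extraembryonic endoderm markers summed to 43 to 48 in null replicates 3 to 5 and 149 to 452 in null replicates 1 and 2, against 43 to 47 in Fl/Fl cells. Afp, Ttr, Amn and Sox7 of that list were at 20 or less on all 7 arrays. The other members, Foxa2 and Sox17, are the factors of definitive endoderm given above. Neural markers summed to 487 to 1056 in null cells, against 850 to 1044 in Fl/Fl cells, and cardiac markers to 470 to 696 in null cells, against 775 to 1493 in Fl/Fl cells. Sox1, Pax6 and Neurog1 of the neural markers and Tnnt2, Nkx2-5 and Myh6 of the cardiac markers were at 20 or less on all 7 arrays. The 10 cardiac genes above, which hold all cardiac markers but Actc1, summed to 93 to 228 in null cells and 171 to 248 in Fl/Fl cells. Most of the cardiac marker sum thus came from Actc1. The 5 markers of endothelium and blood were at 20 or less on all 7 arrays. Of 11 genes on the wider list for these cells, 7 were at 20 or less on all 7 arrays, 1 fell and 0 rose. The fall was in Lmo2, which averaged 26.6 in null cells and 103.0 in Fl/Fl cells. Its log2 difference was -1.86 (adjusted p = 9.22e-05, limma, adjusted over all probe sets with 1 gene). The part of such cells in the falls of the collagen and matrix genes was not tested.

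The genotype difference at day 6 was then set against that at day 4 and at day 0, as a difference of differences in the same fit over all 30 arrays. It differed from day 4 in 378 genes (2.08%), upward in 216 (1.19%) and downward in 162 (0.89%), and from day 0 in 326 genes (1.79%), upward in 162 (0.89%) and downward in 164 (0.901%). Of the 72 pluripotency genes 8 moved up and 3 down against day 4, and 10 up and 3 down against day 0. Of the 139 mesenchymal genes 3 moved up and 11 down against day 4, and 1 up and 11 down against day 0. Pou5f1 averaged 7325 ± 782 in null cells (SD, n = 3) and 7879 ± 1987 in Fl/Fl cells (SD, n = 2) at day 0, and 7099.6 ± 771.3 in null cells (SD, n = 5) and 4418 ± 247 in Fl/Fl cells (SD, n = 2) at day 4. At day 6 it averaged 4093 ± 901 in null cells (SD, n = 5) and 439 ± 78 in Fl/Fl cells (SD, n = 2). The difference at day 6 exceeded that at day 4 by 2.51 on the log2 scale (SE 0.45, adjusted p = 0.00228) and that at day 0 by 3.28 (SE 0.47, adjusted p = 0.000305). At day 8 Pou5f1 averaged 633 ± 255 in null cells and 223 ± 180 in Fl/Fl cells (SD, n = 2 each). Nanog, with 1426 ± 482 in null cells (SD, n = 5) and 1348 ± 123 in Fl/Fl cells (SD, n = 2) at day 4, changed in its null minus Fl/Fl difference by 2.75 to day 6 (SE 0.60, adjusted p = 0.0128). Sox2 already differed at day 4, with 3021 ± 766 in null cells (SD, n = 5) and 639 ± 22 in Fl/Fl cells (SD, n = 2), and the further change to day 6 was 0.14 (adjusted p = 1).

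**Figure D4:**
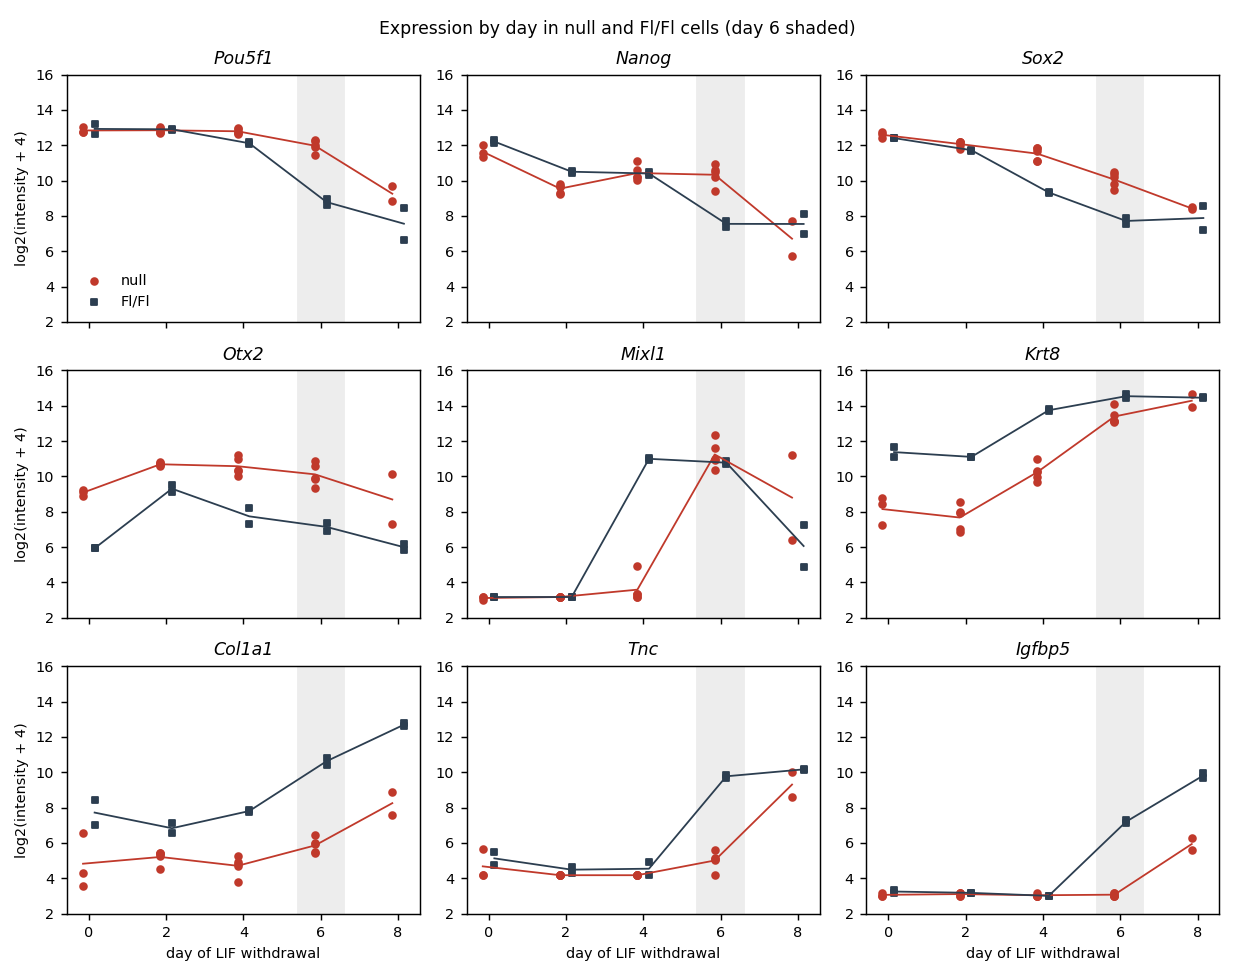
Each point is 1 array and each line joins group means, on the log2(intensity + 4) axis, by day of LIF withdrawal, for null (circles, left) and Fl/Fl (squares, right) cells, with day 6 shaded. Pou5f1 and Nanog lie higher on every null array than on either Fl/Fl array at day 6, Mixl1 is at or near the floor in null cells up to day 4 and overlaps Fl/Fl cells at day 6, and Tnc and Igfbp5 lie lower on every null array than on either Fl/Fl array at day 6.

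Matrix genes reached day 6 by different courses. Tnc measured 14 on all 5 null arrays and 14 and 26 on the Fl/Fl arrays of day 4, and its null minus Fl/Fl difference moved by -4.40 to day 6 (SE 0.53, adjusted p = 4.1e-05). Igfbp5 was likewise at the floor in both genotypes at day 4, with a change in the difference of -4.16 (adjusted p = 1.78e-12). Postn changed by -2.12 (adjusted p = 0.000939), Cd248 by -3.69 (adjusted p = 3.12e-05), Prrx2 by -2.57 (adjusted p = 0.000778) and Col1a2 by -2.82 (adjusted p = 0.00936) against day 4. Col1a1 was unlike these: it averaged 38.0 ± 45.2 in null cells (SD, n = 3) and 233 ± 153 in Fl/Fl cells (SD, n = 2) at day 0, and its changes of -1.67 against day 4 and -1.87 against day 0 did not pass (adjusted p = 0.509 and 0.341). At day 8 null cells had 332 ± 202 for Col1a1, 703 ± 450 for Tnc and 59.0 ± 21.2 for Igfbp5, against 6606 ± 503, 1142 ± 52 and 902 ± 121 in Fl/Fl cells (SD, n = 2 each). In null cells the day 8 means of these genes lay above their day 6 means, and each null array of day 8 lay above every null array of day 6. Tmem87a measured 12 on both null arrays of day 8, near null replicates 1 and 2 of day 6. Neither had the higher level of null replicates 3 to 5, so the null means of these days come from different mixes of arrays. Mixl1 went the opposite way to the matrix genes, with 9.8 ± 9.6 in null cells (SD, n = 5) and 2037 ± 103 in Fl/Fl cells (SD, n = 2) at day 4, and its difference moved by 7.87 to day 6 (SE 1.13, adjusted p = 0.000316). Lhx1 moved by 6.17 (adjusted p = 0.0204) and Krt8, a keratin of simple epithelia, by 2.36 (adjusted p = 0.0478) against day 4. Igfbp3 averaged 1917 ± 355 in null cells (SD, n = 5) and 12020.5 ± 938.3 in Fl/Fl cells (SD, n = 2) at day 4, the reverse of its order at day 6, a move of 4.14 (SE 0.29, adjusted p = 1.9e-08).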

How the data were processed

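The deposited table holds probe set intensity on a linear scale, in whole numbers, for 45101 probe sets on 30 arrays. No label or header tells how the authors corrected background, summarised probes or normalized; array means lay between 331.8 and 363.6. Per the labels' protocols, RNA was extracted with Trizol. The 34958 probe sets with 1 annotated gene were kept, and those with several genes (932) or none (9211) were left out. For 9012 genes with several probe sets, the one with the highest mean over all arrays stood for the gene. No low-signal filter was used. Groups were taken from the labels. R 4.3.3 and limma 3.58.1 (lmFit, eBayes) fitted 1 mean per group of genotype and day to log2(intensity + 4) over all 30 arrays (20 residual degrees of freedom), since Fl/Fl day 6 has 2 arrays. Tests were two-sided, with Benjamini-Hochberg adjustment over 18194 genes and a threshold of 0.05. On simulated arrays for this comparison, over 18194 genes, 74 of 100 genes changed by 1 on the log2 scale and 96 of 100 changed by 2 were recovered, and 13 unchanged genes were called. The simulated noise was independent between genes and arrays, around 1 mean per group. It did not hold the split among the null arrays, so these numbers need not hold for the deposited arrays.

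No label pairs null with Fl/Fl samples, so equal replicate numbers were not taken as pairs. Deviations from the group means correlated at 0.313 for number 1 and -0.116 for number 2 (5000 genes). With 2 Fl/Fl arrays their deviations mirror each other, so these correlations cannot decide whether numbers pair the samples. Alternatives were other pseudocounts (1 and 16), quantile normalization, 75th percentile scaling, a filter that removed 40% of genes, the mean of all probe sets of a gene, a fit over the 7 arrays of day 6, the replicate number as a block, leaving out each array, and null arrays on either side of an Eif2s3y intensity of 400. Named genes were Jarid2 and PRC2 genes, up to 5 called members per list and direction with the smallest adjusted p, up to 3 uncalled pluripotency or mesenchymal members with the highest mean, the 10 largest rises and falls with no overlap, and Eif2s3y, Meg3 and Tmem87a. Lum, Dcn, Esrrb, Zfp42, Nr0b1 and a few other list members were added as markers of a state or for their levels. The gene lists and the members named were chosen with earlier results of these data known. Checks on single genes cover 132 of the named genes and leave out some named only in passing, such as Rbbp7, Thy1 and Afp. Of the 132, 86 had other probe sets (168 in all), and 0 of those were called in the opposite direction.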

Additional observations from a re-analysis of the deposited data

Results flagged for a closer look

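Among the 132 named genes checked, 17 had 1 null day 6 array that lay apart from the other 4 by Dixon's test on the log2 scale. Chance gives about 1 in 20 such genes, and genes of one array are not independent. Null replicate 1 was apart for Upp1 (3578), Cdh1 (5535), Axl (15) and Tagln (7951). Null replicate 2 was apart for Ina (39), Runx1 (59), Col3a1 (19), Plat (52) and Igf2r (606), always toward the Fl/Fl level. Replicate 3 was apart for Zeb2 (30). Replicate 4 was apart for Esrrb (12), Lum (6), Dcn (18) and Myl4 (9), and replicate 5 for Col1a2 (13), Postn (8) and Foxc1 (11), all near the floor of the arrays.

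For 19 genes the genotype difference at day 6 was tested against day 4 and day 0 (limma, adjusted p under 0.05), and 29 differences passed. Over all genes, 2.08% passed against day 4 and 1.79% against day 0. The 19 genes were chosen among the named genes, many of them named for their day 6 difference. The day 6 values enter these contrasts too, so the number that passed is no independent support. Against day 4, the null minus Fl/Fl difference in log2 units was higher by 2.51 in Pou5f1, 2.75 in Nanog, 1.80 in L1td1 (RNA-binding), 0.92 in Epcam (adhesion), 3.81 in Apela (peptide ligand), 4.14 in Igfbp3, 7.87 in Mixl1, 6.17 in Lhx1 and 2.36 in Krt8. It changed by -2.82 in Col1a2, -4.40 in Tnc, -2.12 in Postn, -2.57 in Prrx2, -3.69 in Cd248 and -4.16 in Igfbp5. Against day 0 it was higher by 3.28 in Pou5f1, 3.35 in Nanog, 2.15 in Sox2, 2.52 in L1td1, 1.04 in Epcam, 4.56 in Apela and 2.00 in Igfbp3. It changed by -2.81 in Col1a2, -4.96 in Col11a1, -4.31 in Tnc, -2.20 in Postn, -2.36 in Prrx2, -4.37 in Cd248 and -3.94 in Igfbp5. The streak genes Mixl1 and Lhx1 stand on this list for day 4 only, and Col11a1 and Sox2 for day 0 only.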

How the results depend on the processing

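Without 1 array, the number of genes past the threshold at day 6 ran from 546 to 2139 (lowest without Fl/Fl replicate 2, and 813 without Fl/Fl replicate 1), the change of the genotype difference against day 4 from 260 to 441 genes and against day 0 from 177 to 483, the pluripotency rises from 11 to 27 and the mesenchymal falls from 32 to 60. With null arrays above the Eif2s3y limit only, these were 4197, 1591, 1971, 34 and 82 genes. With null arrays at or below it only, they were 308, 141, 302, 8 and 15, from fewer arrays. Quantile normalization gave 2096 genes at day 6, of which 48.3% were higher, and 75th percentile scaling 2027, of which 49.8% were higher, beside 34.9% of 1806; the percentile scaling moved the median of all genes by 0.12. With the replicate number as a replicate block, 1667 genes passed at day 6, 451 against day 4 and 393 against day 0. Pluripotency rises were then 22 and mesenchymal falls 51. No label says that the replicate numbers pair the samples. With other pseudocounts, the filter and the mean over probe sets, each of these totals stayed within 1.5 times of its value, as did the day 6 total and both list totals in the fit over the 7 arrays of day 6. Of the 132 named genes checked, none that passed turned its direction under any setting run. Pseudocounts of 1 and 16 and quantile normalization left all 132 on their side of the threshold, while 23 lost their call without Fl/Fl replicate 1, 34 without Fl/Fl replicate 2, 17 in the fit over 7 arrays and 56 with null replicates 1 and 2 alone. Fold changes of genes near the floor, such as Igfbp5 and Col3a1, are limited by signal over background.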
